A study of Mus musculus with 8 samples.

Results

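Imprinted genes are transcribed mainly from a single parental copy, which is set by DNA methylation laid down in egg or sperm. Many of them act on growth, and several are known in mouse blood stem cells as part of the programme that holds these cells out of the cell cycle. The 9 genes chosen by name were Cdkn1c, Ndn, H19, Igf2, Igf2r, Dlk1, Meg3, Grb10 and Peg3, of 18193 genes with a value. Of these, 8 were measured, through 34 probe sets that the platform annotation gives to that gene alone. The annotation lists H19 only on a probe set shared with Mir675, so H19 was not analysed here. Each gene is reported through its brightest probe set on average, and its other probe sets, ranked by mean level, served as a check.

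The arrays measured messenger RNA of CD45.1+ marrow cells from chimeric mice in 4 groups of 2 arrays. All hosts were CD45.1+ mice that had received CD45.1+ marrow, and CD45.1+ cells were the ones sorted. Leukemic mice had also received the same number of CD45.2+ marrow cells carrying BCR-ABL and SCL-tTA, and the controls lacked the BCR-ABL gene. The BCR-ABL fusion protein drives chronic myeloid leukaemia, and SCL-tTA, driven by a stem cell gene, switches it on when tetracycline is taken away. The groups were leukemic HSC (CD150+ CD48- KSL cells of leukemic mice), normal HSC (the same cells of control mice), leukemic KSL and normal KSL. The sample titles call the cells of all groups non-transformed, so leukemic and normal name the mouse and not the sorted cells. The design text puts the HSC sort 4 weeks after tetracycline withdrawal. KSL cells are lineage negative, Kit+ and Sca-1+, and the KSL gate includes the HSC gate. Neither the ages of the mice nor whether replicates were separate mice is stated, so p-values measure the spread between these samples only.

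Values are log2 units as deposited, with a floor at 3.32. The sorts could be followed in the markers. Of the long-term HSC genes, 12 of 12 measured had a higher mean in HSC than in KSL in leukemic and in normal mice. Limma passed 7 and 5 of them (3.13% and 0.803% of all genes were called higher). Slamf1, which is among the 12, encodes CD150, used in the HSC gate itself. Arrays of the HSC groups were noisier, with a median SD between replicates of 0.21 (leukemic) and 0.20 (normal), against 0.09 and 0.11 in the KSL groups. The fit shares a single spread over the 4 groups, so p-values within HSC tend to be too small and those within KSL too large. Replicate 1 of both normal groups stood apart by a male pattern of sex-linked genes, with Xist at 5.79 and 3.67 against 11.6 to 12.0 on the other 6 arrays. HSC normal replicate 1 also differed from replicate 2 in markers of other cell types: the summed linear level of 8 mature neutrophil and monocyte markers was 10105 against 554 (19086 and 13268 in leukemic HSC), and that of 6 erythroid markers 6259 against 670 (844 and 1326 in leukemic HSC). The part of these differences in the results was not tested.

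The first comparison asked which of the imprinted genes mark HSC within the KSL gate. Grb10 rose in HSC in both kinds of mice, and Ndn and Cdkn1c had large differences that missed the threshold of an adjusted p under 0.05. Grb10 encodes an adaptor protein that binds the insulin and IGF1 receptors and restrains growth. Its log2 values were 9.09 and 9.27 in leukemic HSC and 9.25 and 9.29 in normal HSC, against 6.59 and 6.83 in leukemic KSL and 6.59 and 6.48 in normal KSL. All 4 HSC arrays lay more than 2 log2 units above all 4 KSL arrays. The log2 fold change of HSC over KSL was 2.47 ± 0.11 in leukemic mice (SE, n = 2 arrays per group, limma adjusted p = 0.00591) and 2.74 ± 0.11 in normal mice (adjusted p = 0.00534), which is 5.53-fold and 6.67-fold. In bulk samples, fewer cells of a type and less RNA per cell cannot be told apart. The other 2 Grb10 probe sets lay in the same direction. The second-ranked gave 2.47 ± 0.27 in leukemic mice and 3.42 ± 0.27 in normal mice (adjusted p = 0.0249 and 0.0262 over all probe sets). The third-ranked gave 2.49 ± 0.74 and 2.07 ± 0.74 (adjusted p = 0.155 and 0.301). With only the 4 arrays of the pair in the fit, Grb10 did not pass (adjusted p = 0.057 in leukemic and 0.0759 in normal mice), nor without the 2 male arrays (0.057 and 0.101). In leukemic mice it also did not pass without KSL leukemic replicate 1 (0.0643) or replicate 2 (0.0543), while its fold change there stayed between 2.34 and 2.59.

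Among 18193 genes, limma called 3.13% higher and 2.74% lower in HSC than in KSL in leukemic mice, and 0.803% higher and 1.0% lower in normal mice. Of the 8 imprinted genes, 1 passed in each, Grb10. At an unadjusted p under 0.05 it was 3 of 8 higher in leukemic mice (12.7% of all genes) and 5 of 8 in normal mice (8.86% of all genes). The log2 fold change was above 0 for 6 of 8 genes in leukemic mice, with a median of 0.36 against 0.01 over all genes. In normal mice it was above 0 for 8 of 8, with a median of 0.94 against 0.00 over all genes. The HSC and KSL arrays did not overlap, with HSC higher, for 4 of 8 genes in leukemic mice (28.2% of all genes) and 8 of 8 in normal mice (24.2% of all genes). Peg3 was lower in HSC without overlap in leukemic mice, as were 23.2% of all genes.

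Ndn had the largest HSC to KSL difference in normal mice among the 8 reported probe sets. It encodes necdin, a growth suppressor of the MAGE family that binds E2F and p53. On the reported probe set the values were 8.04 and 7.20 in leukemic HSC and 9.45 and 8.40 in normal HSC, against 5.22 and 5.24 in leukemic KSL and 5.64 and 5.66 in normal KSL. All HSC arrays were above all KSL arrays, and the arrays within each HSC group lay about 1 unit apart. For HSC over KSL, Ndn had a log2 fold change of 2.39 ± 0.44 in leukemic mice (limma adjusted p = 0.0558) and 3.27 ± 0.44 in normal mice (adjusted p = 0.0506). In leukemic mice it passed without HSC normal replicate 1 or replicate 2 (adjusted p = 0.0449 each), where the fold change is the same and the shared spread is not. Of 8 Ndn probe sets, 3 were at the floor on all arrays, and the other 5 all had a higher mean in HSC in both kinds of mice. In normal mice 3 of these 5 passed over all probe sets (0.498% of probe sets were called higher), with log2 fold changes of 4.28 ± 0.42, 4.05 ± 0.42 and 3.72 ± 0.40. In leukemic mice none of the 5 passed (2.16% of probe sets were called higher), with 4 of them between 2.28 and 2.39 at adjusted p between 0.0578 and 0.064. The faintest of the 5 gave 1.40 ± 0.92 with HSC leukemic replicate 1 at the floor.

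Cdkn1c encodes p57, an inhibitor of cyclin-dependent kinases that is needed for quiescence of mouse HSC. It has a single probe set, with values of 5.51 and 5.24 in leukemic HSC and 6.39 and 5.48 in normal HSC, against 4.13 and 4.42 in leukemic KSL and 4.31 and 4.43 in normal KSL. All 4 HSC arrays were above all 4 KSL arrays. Cdkn1c had a log2 fold change of 1.10 ± 0.33 in leukemic mice (limma adjusted p = 0.144) and 1.57 ± 0.33 in normal mice (adjusted p = 0.116). It passed in normal mice without HSC normal replicate 2 (2.02, adjusted p = 0.0471). In leukemic mice it passed without either HSC normal array (1.10, adjusted p = 0.0494), where the change comes from the shared spread.

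**Figure D1:**
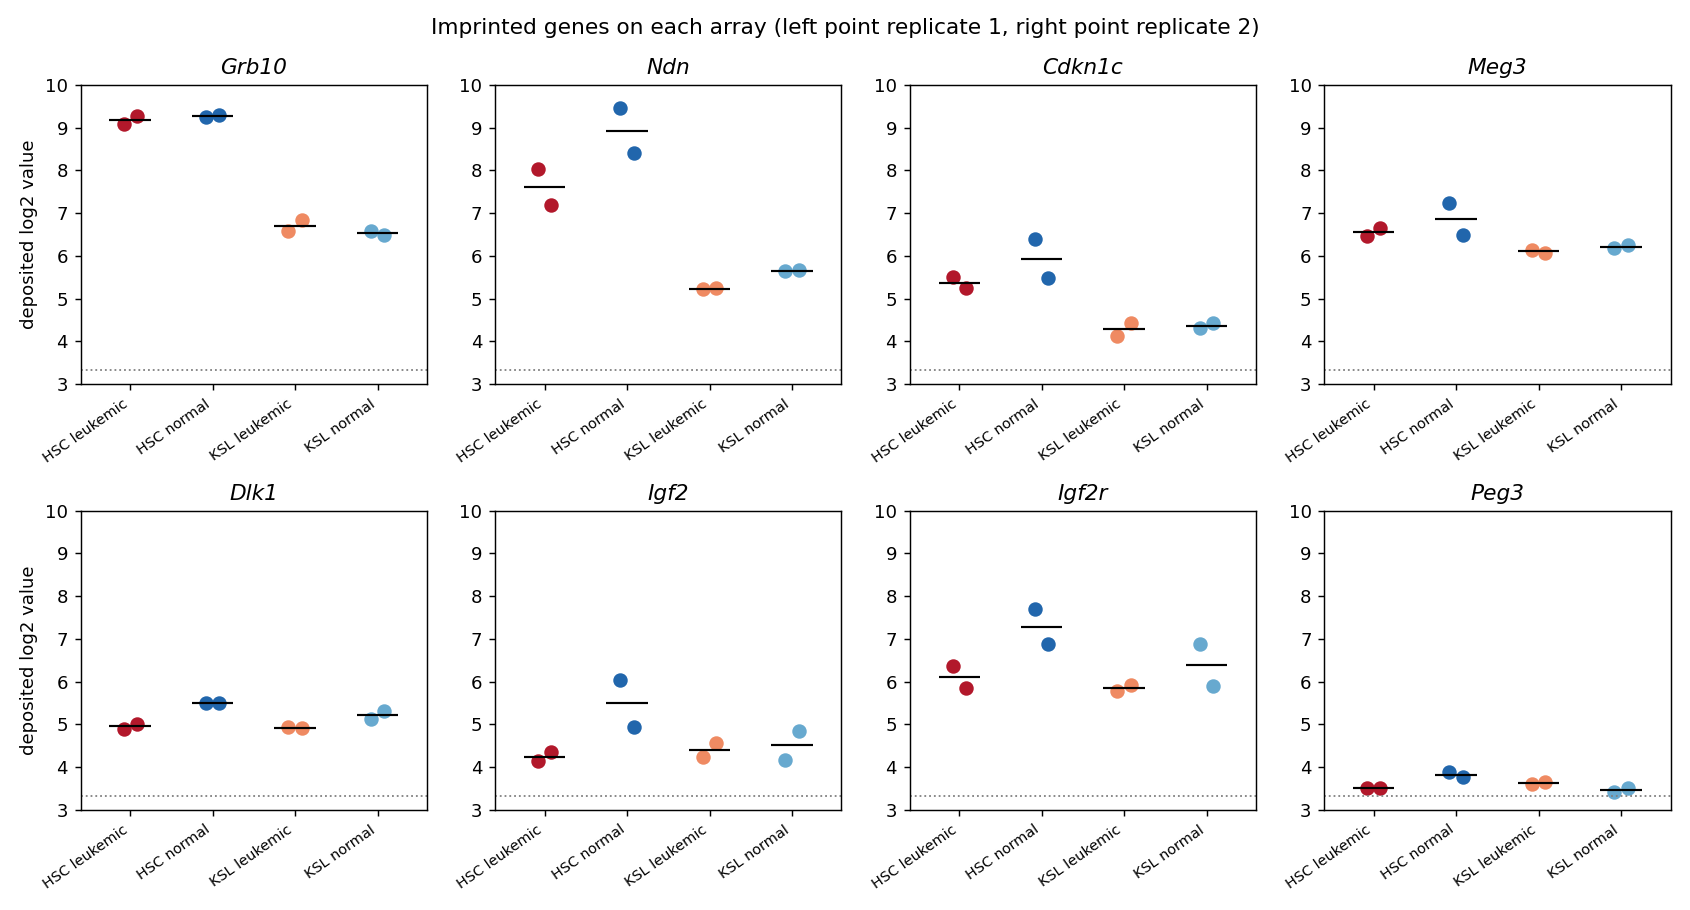
Deposited log2 value of 8 imprinted genes (vertical axis, same scale in every panel) in the 4 groups; each point is an array, the line is the mean of 2 arrays and the dotted line is the floor. Grb10, Ndn and Cdkn1c are higher on every HSC array than on every KSL array, while Peg3 stays close to the floor.

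The start regions of Grb10, Ndn and Meg3 are printed because these genes held the largest HSC to KSL differences on any of their probe sets. They are RefSeq sequences of build GRCm38.p6, 300 bases across an annotated start, read 5′ to 3′ on the gene's strand, with CpG sites, where DNA methylation sits, in capitals. RefSeq gives 12 such regions for 7 of the 9 genes, with none for Cdkn1c and H19 in the table used.
Grb10 upstream start, chr11:12037371-12037670, minus strand: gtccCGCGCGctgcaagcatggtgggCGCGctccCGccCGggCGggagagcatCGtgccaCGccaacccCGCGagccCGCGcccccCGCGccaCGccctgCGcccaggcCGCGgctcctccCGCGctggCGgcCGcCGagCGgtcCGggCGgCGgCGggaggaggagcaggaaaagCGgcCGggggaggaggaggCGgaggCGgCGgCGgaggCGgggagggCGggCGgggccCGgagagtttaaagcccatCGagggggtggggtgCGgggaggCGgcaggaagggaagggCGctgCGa
Ndn, chr7:62348027-62348326, plus strand: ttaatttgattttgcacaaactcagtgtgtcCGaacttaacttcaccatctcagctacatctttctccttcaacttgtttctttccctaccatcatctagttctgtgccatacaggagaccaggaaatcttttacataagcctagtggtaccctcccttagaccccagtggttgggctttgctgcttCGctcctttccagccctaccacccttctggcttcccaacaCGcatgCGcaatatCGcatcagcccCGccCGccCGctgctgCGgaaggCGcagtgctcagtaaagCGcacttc
Meg3 upstream start, chr12:109540746-109541045, plus strand: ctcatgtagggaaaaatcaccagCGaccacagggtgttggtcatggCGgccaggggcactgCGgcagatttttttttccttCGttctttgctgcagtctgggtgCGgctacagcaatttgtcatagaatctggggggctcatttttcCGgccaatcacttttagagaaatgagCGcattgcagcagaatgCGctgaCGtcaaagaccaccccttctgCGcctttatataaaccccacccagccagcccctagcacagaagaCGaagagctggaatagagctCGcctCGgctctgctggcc
The Grb10 region holds 45 CpG sites, more than 98.1% of the 32851 regions in the table, whose median is 7. The Ndn region holds 11 and the Meg3 region 13, more than 58.6% and 62.1% of regions. The downstream start of Grb10 holds 9 and that of Meg3 holds 1. The letters TGCCGC, the core bound by the imprint-keeping zinc finger protein Zfp57, or GCGGCA on the other strand, occur once in the Grb10 and once in the Meg3 region above and not in the Ndn region. They occur in 3 of the 12 regions and in 11.61% of all regions, and a match is only a description of the sequence.

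Meg3, a long noncoding RNA of the Dlk1-Dio3 cluster, was read by 11 probe sets that did not move together. The reported probe set had values of 6.47 and 6.65 in leukemic HSC and 7.23 and 6.50 in normal HSC, against 6.14 and 6.08 in leukemic KSL and 6.18 and 6.25 in normal KSL. All HSC arrays were above all KSL arrays, by a log2 fold change of 0.45 ± 0.25 in leukemic mice (limma adjusted p = 0.373) and 0.65 ± 0.25 in normal mice (adjusted p = 0.317). In normal mice it was 0.28 without HSC normal replicate 1 and 1.01 without HSC normal replicate 2 (adjusted p = 0.26 and 0.0501). The probe set of rank 6, singled out after its values were seen, had 4.62 and 5.15 in leukemic HSC and 10.05 and 7.87 in normal HSC, against 3.99 and 4.08 in leukemic KSL and 4.26 and 3.99 in normal KSL. There both HSC arrays of normal mice stood far above the other 6 arrays. Its log2 fold change of HSC over KSL was 0.85 ± 0.75 in leukemic mice (adjusted p = 0.608 over all probe sets) and 4.83 ± 0.75 in normal mice (0.0799). The probe sets of rank 2, 3 and 4 were also highest on HSC normal replicate 1, at 8.96, 8.16 and 9.12. On HSC normal replicate 2 they were at 5.86, 5.37 and 4.96, within or near the range of the leukemic HSC arrays. A further 2 Meg3 probe sets were at the floor on all arrays.

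**Figure D2:**
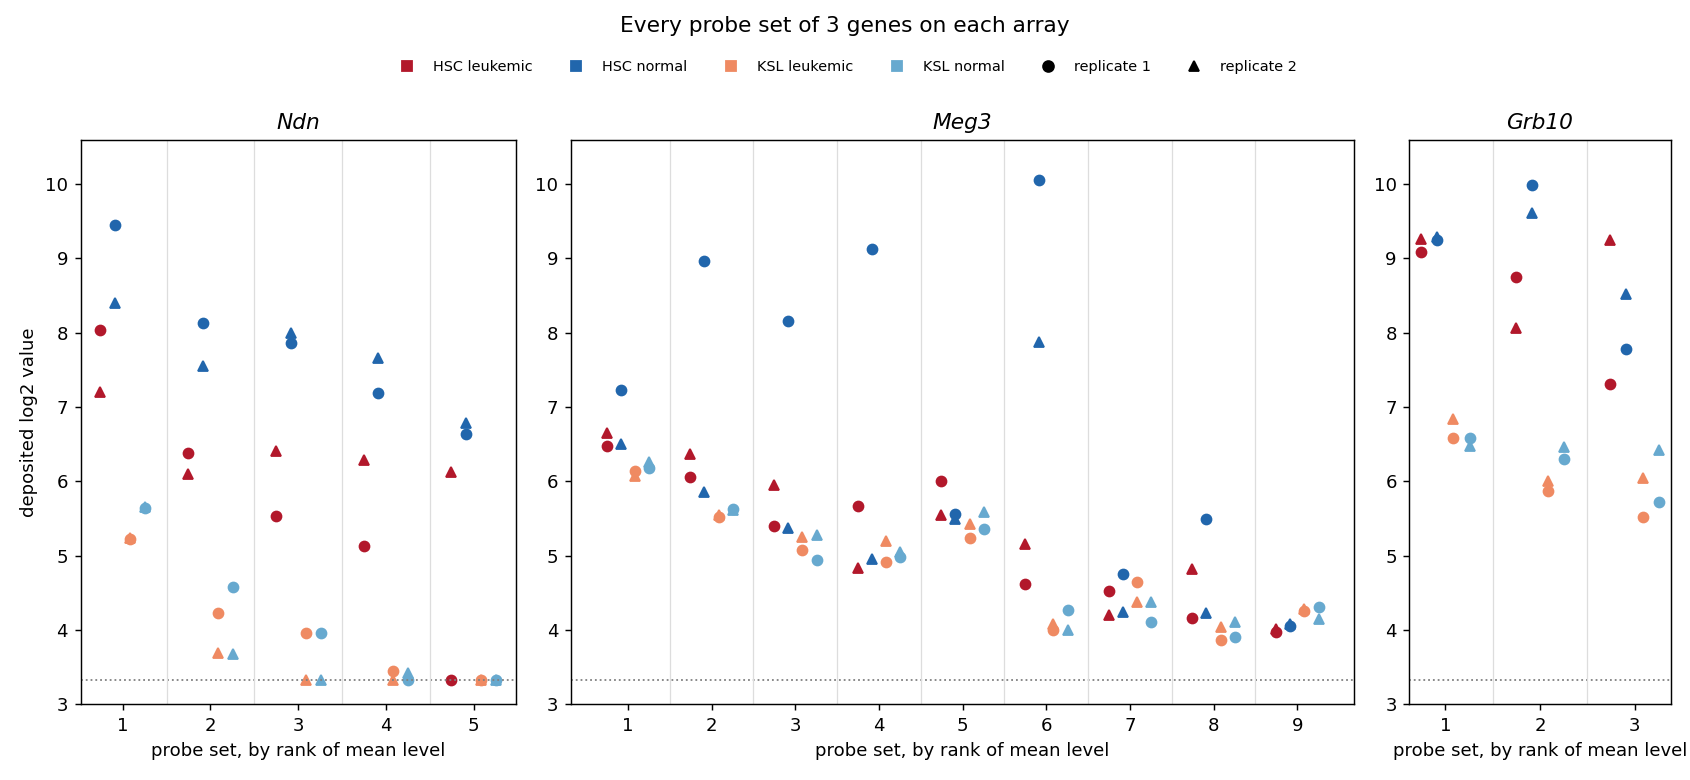
Deposited log2 value (vertical axis) of each Ndn, Meg3 and Grb10 probe set that was off the floor on at least 1 array (horizontal axis, rank by mean level); colours are groups, circles replicate 1 and triangles replicate 2. The Grb10 probe sets and the Ndn probe sets of rank 1 to 4 share the HSC to KSL gap, while 4 Meg3 probe sets rise above 8 on HSC normal replicate 1. On the Ndn probe set of rank 5, HSC leukemic replicate 1 is at the floor, as are the KSL arrays.

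Dlk1, a membrane protein related to Notch ligands, shares the Dlk1-Dio3 cluster with Meg3 and is transcribed from the opposite parental copy. Its reported probe set had 4.89 and 5.01 in leukemic HSC and 5.51 and 5.49 in normal HSC, against 4.93 and 4.92 in leukemic KSL and 5.13 and 5.31 in normal KSL. HSC of normal mice were highest, and HSC and KSL of leukemic mice overlapped. HSC over KSL, Dlk1 had a log2 fold change of 0.03 ± 0.08 in leukemic mice (limma adjusted p = 0.939) and 0.28 ± 0.08 in normal mice (adjusted p = 0.177). The second Dlk1 probe set was at 5.57 on HSC normal replicate 1 and between 3.32 and 3.92 on the other 7 arrays.

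Rian and Mirg, noncoding RNAs of the same cluster, were measured too, and Rtl1 and Dio3 were not. Rian was at 3.32 and 3.57 in leukemic HSC and 7.63 and 3.63 in normal HSC, against 3.34 and 3.33 in leukemic KSL and 3.32 and 4.30 in normal KSL. Only HSC normal replicate 1 was far above the floor. Mirg was highest on the same array, at 5.22, and between 3.70 and 4.77 on the other 7. The highest value of each of Meg3, Dlk1, Rian and Mirg came from that array. The same array also had the highest erythroid sum of the 8 arrays, 6259, and the male pattern, shared with KSL normal replicate 1. Its neutrophil and monocyte sum of 10105 exceeded the 554 of HSC normal replicate 2. Leukemic HSC had more, at 19086 and 13268. The part of those features in the cluster's values was not tested.

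**Figure D3:**
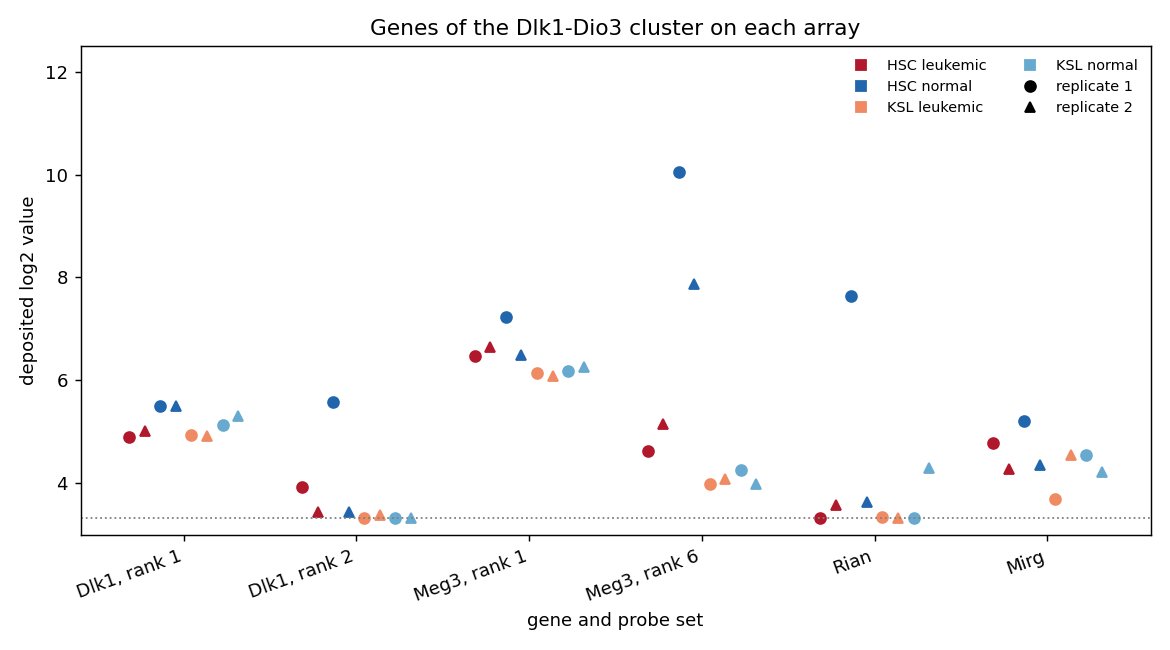
Deposited log2 value (vertical axis) of the Dlk1 probe sets of rank 1 and 2, the Meg3 probe sets of rank 1 and 6, Rian and Mirg on each of the 8 arrays; colours are groups, circles replicate 1, triangles replicate 2, and the dotted line is the floor. HSC normal replicate 1 is the highest array for each of these 6, at 10.05 for the Meg3 probe set of rank 6 and 7.63 for Rian.

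In the IGF2 axis, neither Igf2 nor Igf2r passed limma in HSC versus KSL in either kind of mice. Igf2 is the fetal growth factor, and Igf2r encodes the receptor that clears it. Igf2 values were 4.14 and 4.35 in leukemic HSC and 6.04 and 4.95 in normal HSC, against 4.23 and 4.55 in leukemic KSL and 4.18 and 4.84 in normal KSL. HSC over KSL, Igf2 had a log2 fold change of -0.15 ± 0.44 in leukemic mice (limma adjusted p = 0.946) and 0.99 ± 0.44 in normal mice (adjusted p = 0.377). Igf2r values were 6.37 and 5.86 in leukemic HSC and 7.69 and 6.88 in normal HSC, against 5.78 and 5.93 in leukemic KSL and 6.88 and 5.91 in normal KSL. Replicate 1 was the higher array in both normal groups, and the 2 KSL arrays of normal mice differed by almost 1 unit. Igf2r had a log2 fold change of 0.26 ± 0.45 in leukemic mice (adjusted p = 0.835) and 0.89 ± 0.45 in normal mice (adjusted p = 0.435). Without HSC normal replicate 1 the values in normal mice were 0.44 for Igf2 and 0.49 for Igf2r. Without HSC normal replicate 2 Igf2 was at 1.54, and without KSL normal replicate 1 it was at 0.66. Igf2r was at 0.41 without KSL normal replicate 2 and at 1.38 without KSL normal replicate 1. None of these passed.

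Peg3, a zinc finger protein of a paternally transcribed gene, lay near the floor everywhere. The reported probe set had 3.50 and 3.51 in leukemic HSC and 3.88 and 3.76 in normal HSC, against 3.60 and 3.66 in leukemic KSL and 3.43 and 3.51 in normal KSL. Of its other 4 probe sets, 3 were at the floor on all arrays, and the remaining one reached 4.34 on HSC normal replicate 1. On the reported probe set, the log2 fold change of HSC over KSL was -0.12 ± 0.06 in leukemic mice (limma adjusted p = 0.302) and 0.35 ± 0.06 in normal mice (adjusted p = 0.0751).

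The second comparison asked how the imprinted genes differed in HSC that had shared the marrow with leukemic cells. Leukemic over normal HSC, the log2 fold change was below 0 for 8 of 8 genes, with a median of -0.56 against 0.00 over all genes, and limma passed 0 of 8 (0.0605% of all genes were called higher and 0.0385% lower). At an unadjusted p under 0.05 it was 4 of 8, Dlk1, Ndn, Igf2 and Peg3, against 7.23% of all genes in that direction. The arrays did not overlap for 5 of 8, with leukemic lower (16.7% of all genes). These were Ndn, Dlk1, Igf2, Igf2r and Peg3, and for Grb10, Cdkn1c and Meg3 they overlapped.

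In size, Ndn had a log2 fold change of -1.31 ± 0.44 in HSC of leukemic over normal mice (limma adjusted p = 0.316). All 5 Ndn probe sets off the floor were lower without overlap, between -1.99 and -1.31 (16.4% of all probe sets were lower without overlap), and none passed (0.0401% of probe sets were called lower). Igf2 was at -1.25 ± 0.44 (adjusted p = 0.331) and Igf2r at -1.17 ± 0.45 (0.364). The second Igf2r probe set gave -0.03, with the 2 leukemic arrays at 4.46 and 7.40. Dlk1 was at -0.55 ± 0.08 (adjusted p = 0.125) and Peg3 at -0.31 ± 0.06 (0.162). Cdkn1c was at -0.56 ± 0.33 (0.544) and Meg3 at -0.30 ± 0.25 (0.675), and Meg3 was at 0.07 without HSC normal replicate 1. The Meg3 probe set of rank 6 was at -4.08 ± 0.75 (adjusted p = 0.161 over all probe sets), with both leukemic arrays below both normal arrays.

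Grb10 was near 0 on its reported probe set, at -0.09 ± 0.11 (limma adjusted p = 0.793), a fold of 1.07. Its probe sets disagreed here: the second-ranked had 8.76 and 8.06 in leukemic HSC against 9.99 and 9.60 in normal HSC, a log2 fold change of -1.39 ± 0.27 (adjusted p = 0.176 over all probe sets). The third-ranked gave 0.12 ± 0.74. Which Grb10 transcripts each probe set reads is not given.

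HSC normal replicate 1 weighed on these differences. It was the highest of the 8 arrays for 7 of the 8 genes, while HSC normal replicate 2 was highest for Grb10. The same array was highest for 15.9% of all genes off the floor. Without it the log2 fold change in HSC was -0.78 for Ndn, -0.70 for Igf2, -0.77 for Igf2r, -0.54 for Dlk1, -0.25 for Peg3 and -0.11 for Cdkn1c. None passed, with or without it. The control probes for RNA quality moved with the groups as well: the 3 prime minus 5 prime difference of Tfrc was -0.36 and -0.75 in leukemic HSC against -2.04 and -1.74 in normal HSC, and that of Gapdh was 1.19 and 1.03 against 0.78 and 0.83. Summed levels of 13 stromal, osteoblast and mesenchymal markers, cells in which several imprinted genes are abundant, were 1041 and 654 in leukemic HSC against 718 and 620 in normal HSC, with overlap. For those of the 8 endothelial markers the sums were 857 and 1018 against 1051 and 1275. The sums of 12 long-term HSC markers were 10178 and 9226 against 11677 and 12851, and 9 of the 12 had a lower mean in leukemic HSC, with a median log2 fold change of -0.55 beside -0.56 for the imprinted genes. The sums of 6 myeloid progenitor markers were 4558 and 7055 against 1853 and 2353, and 6 of 6 had a higher mean, with a median of 2.31. Neither list overlapped between the groups in its sums, and limma passed none of their genes here. The part of RNA quality, of HSC markers and of progenitor, endothelial or mature blood cells in the differences was not tested.

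**Figure D4:**
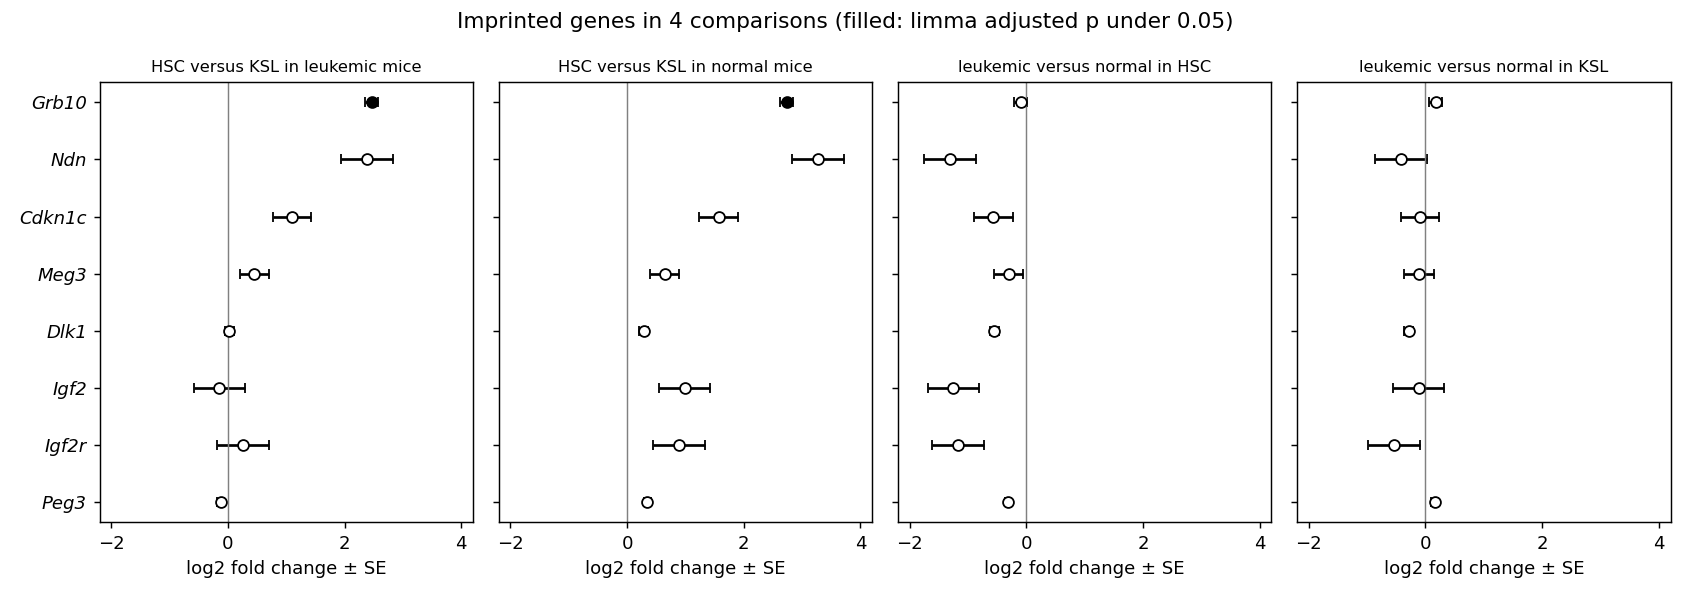
Log2 fold change with its standard error (horizontal axis) of 8 imprinted genes (rows) in 4 comparisons, the first group named over the second; filled points passed limma at an adjusted p under 0.05. Grb10 alone passed, in HSC versus KSL, and all 8 points lie left of 0 in leukemic versus normal HSC, where none passed.

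The same comparison was made in KSL. Limma passed 0 of 8 (0.0165% of all genes were called higher and 0.0275% lower), with Dlk1 lower and Peg3 higher at an unadjusted p under 0.05 (4.45% and 3.5% of all genes in those directions). The median log2 fold change was -0.11 against -0.00 over all genes, and 6 of 8 were below 0. Arrays did not overlap, with leukemic lower, for 3 of 8 (24.1% of all genes), namely Dlk1, Meg3 and Ndn, and with leukemic higher for Peg3 (20.5% of all genes). Off the floor, 1 of 5 Ndn, 2 of 9 Meg3, 1 of 2 Dlk1, 1 of 3 Grb10 and 1 of 2 Igf2r probe sets were lower without overlap. Over all genes the share was 24.1%. The Grb10 one was at -0.44 ± 0.27 and the Igf2r one at -0.84 ± 1.03, both second-ranked. A Meg3 probe set and 2 of 2 Peg3 probe sets were higher without overlap, as were 20.5% of all genes. The second Peg3 probe set was at 3.32 and 3.36 in leukemic KSL, with both normal KSL arrays at the floor. Its log2 fold change was only 0.02 ± 0.34. Dlk1 was at -0.29 ± 0.08 (limma adjusted p = 0.466) and Ndn at -0.42 ± 0.44 (adjusted p = 1). Grb10 was at 0.18 ± 0.11 (0.902), Cdkn1c at -0.09 ± 0.33 (1) and Igf2r at -0.53 ± 0.45 (0.989). The long-term HSC markers were lower here as well, with sums of 1583 and 1523 in leukemic KSL against 2953 and 2736 in normal KSL. Of the 12, 10 had a lower mean (median log2 fold change -0.62), and none passed limma. Their part in the differences of the imprinted genes was not tested.

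The test of whether the leukemic difference in HSC was unlike that in KSL passed 0 of 8 genes in limma (0.0% of all genes were called higher and 0.0055% lower), with 1 at an unadjusted p under 0.05, Peg3. The HSC difference minus the KSL difference was -0.47 ± 0.08 for Peg3 (adjusted p = 0.286), -0.89 ± 0.63 for Ndn (0.773) and -1.13 ± 0.62 for Igf2 (0.684). For Grb10 it was -0.27 ± 0.16 (0.702). The same number is the HSC to KSL difference in leukemic mice minus that in normal mice, so the smaller gaps of Ndn and Cdkn1c in leukemic mice were not shown to differ from those in normal mice. Over the 5 Ndn probe sets off the floor, this number lay between -1.99 and -0.89, smallest in size on the reported one. Over the 9 Meg3 probe sets off the floor it lay between -3.99 and 0.39. None of these probe sets passed.

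Across the 8 arrays, the order of the group means was HSC normal, HSC leukemic, KSL normal, KSL leukemic for Ndn, Cdkn1c and Meg3. For Grb10 it was HSC normal, HSC leukemic, KSL leukemic, KSL normal, where the neighbours within HSC overlapped and so did those within KSL. The neighbours of Cdkn1c also overlapped within HSC and within KSL, and those of Meg3 within HSC. Genes with the pattern most like that of Ndn, by Pearson's r over the 8 arrays among 16170 genes, were Itsn1 (0.997), 1300002E11Rik (0.988) and Stard10 (0.985). Those most like Grb10 were Gng11 (0.993), Snap23 (0.992) and Gm11767 (0.989). Those most like Cdkn1c were Sult1a1 (0.987), Ndn (0.982) and Igtp (0.980). These are descriptions: the arrays fall into an HSC and a KSL cluster, which by itself gives a high r.

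Other imprinted genes were taken as clusters around the members. The Kcnq1 cluster holds Cdkn1c and 10 other genes measured here, of which limma passed 3 higher and 0 lower in HSC versus KSL of leukemic mice (3.13% of all genes higher) and 1 higher and 0 lower in normal mice (0.803% higher). Phlda2, which restrains placental growth, rose in both, by 1.04 ± 0.14 in leukemic mice (adjusted p = 0.0293) and 1.13 ± 0.14 in normal mice (0.042). Slc22a18, a membrane transporter gene, rose by 1.21 ± 0.14 (0.0231) and the tetraspanin gene Cd81 by 0.84 ± 0.14 (0.0476) in HSC over KSL of leukemic mice. Kcnq1ot1, the noncoding RNA that silences the cluster on the paternal copy, was at 9.22 and 8.76 in leukemic HSC against 9.76 and 9.94 in normal HSC. Its log2 fold change there was -0.86 ± 0.17 (adjusted p = 0.17), and in KSL it was -0.59 ± 0.17 (0.51).

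Airn is the noncoding RNA whose transcription silences Igf2r on the paternal copy in mice. It was at 5.69 and 5.71 in leukemic HSC against 7.45 and 7.01 in normal HSC, without overlap. Airn had a log2 fold change of -1.53 ± 0.22 (limma adjusted p = 0.126). On its reported probe set Igf2r was thus lower without overlap in the same comparison as Airn, and neither passed. The second Igf2r probe set gave -0.03 there, with overlap. The other measured neighbour, Slc22a2, was at 0.42 ± 0.26 (0.577).

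Of the 6 measured genes of the Ndn-Snrpn cluster, limma passed none in any of the 5 comparisons, and none had an unadjusted p under 0.05. In HSC versus KSL their median log2 fold change was -0.12 in leukemic and -0.14 in normal mice, so the Ndn gap was not seen in the cluster's median. Magel2, the neighbouring MAGE family gene, lay between 3.71 and 4.21 on all arrays. Mkrn3 was at the floor on 7 of 8 arrays, and Snrpn and Peg12 averaged 4.54 and 4.79. Only Atp10a and Ube3a lay well above the floor, with means of 7.14 and 9.82. Both measured genes of the Peg3 cluster, Zim1 and Usp29, also passed in none. Of 26 imprinted genes at other loci, limma passed 1 in HSC versus KSL of leukemic mice, Blcap, higher by 0.81 ± 0.08 (adjusted p = 0.0186, with 3.13% of all genes called higher), and none in the other 4 comparisons.

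Over all 48 measured companions of these clusters and loci, limma passed 4 higher and 0 lower in HSC versus KSL of leukemic mice (3.13% of all genes higher, 2.74% lower) and 1 higher and 0 lower in normal mice (0.803% higher, 1.0% lower). The count in normal mice is thus near the share of all genes. In leukemic against normal mice it passed 0 in HSC and 0 in KSL. At an unadjusted p under 0.05, 5 of 48 were lower and 1 higher in HSC, where 7.23% of all genes were lower. In KSL 4 were lower and 0 higher, where 4.45% of all genes were lower and 3.5% higher. In HSC versus KSL, 10 of 48 were higher and 1 lower in leukemic mice (12.7% of all genes higher). In normal mice 8 of 48 companions were higher and 1 lower (8.86% of all genes higher). Their median log2 fold change in HSC of leukemic over normal mice was -0.00, against -0.56 for the 8 members, which had been chosen by name with earlier results of these data known.

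Among 20 measured genes of IGF and insulin signalling, limma passed 1, Akt2, which encodes a kinase downstream of these receptors. In leukemic mice it was higher in HSC than in KSL by 1.68 ± 0.25 (adjusted p = 0.0367), a call made for 3.13% of all genes. Igf1, a ligand of the IGF1 receptor, was at 5.31 and 5.26 in leukemic HSC against 9.02 and 6.97 in normal HSC, with a log2 fold change of -2.71 ± 0.75 (0.25). Its highest array was again HSC normal replicate 1. Igf2bp1, whose protein binds Igf2 messenger RNA, was at -0.68 ± 0.14 (0.18).

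Of 9 measured genes that set imprints or keep them in place, limma passed 1 higher and 1 lower, both in HSC versus KSL of leukemic mice, where 3.13% of all genes were called higher and 2.74% lower. Zfp57, whose protein guards methylated imprints, rose by 1.55 ± 0.27 (adjusted p = 0.0499), and Dnmt3l, a cofactor of the DNA methyltransferases, fell by 0.73 ± 0.10 (0.0344). In HSC of leukemic over normal mice Zfp57 was at 0.88 ± 0.27 (0.283) and Dnmt3l at 0.38 ± 0.10 (0.242).

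Among 15 cyclin-dependent kinase inhibitors and their partners, limma passed 1, the cyclin D1 gene Ccnd1, which in leukemic mice was higher in HSC than in KSL by 1.08 ± 0.07 (adjusted p = 0.00839), again beside 3.13% of all genes. In HSC of leukemic over normal mice Ccnd1 was at 0.57 ± 0.07 (0.0944) and the kinase gene Cdk6 at 1.26 ± 0.17 (0.122). Cdk6 values there were 11.80 and 11.31 against 10.29 and 10.31, without overlap. Cdkn1b, which encodes the p57 relative p27, was at -0.67 ± 0.10 in KSL of leukemic over normal mice (0.225).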

How the data were processed

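Messenger RNA was measured on 8 Affymetrix arrays, 2 in each of 4 groups. The authors deposited 1 table of log2 values for 45101 probe sets. The submitters' processing notes name RMA with no version given, and the floor at 10 on the linear scale, which holds 14.94% to 15.76% of probe sets per array, is not explained in the sources used here. All 8 columns were matched to samples. The design text names a Nugen amplification and the labelling protocol a standard Affymetrix one, so the amplification is not settled. Disease state and cell type, as labelled, define the groups. The titles of both leukemic KSL samples carry the wording for normal mice as well as that for leukemic mice. The disease state label, leukemic, was used for them.

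Probe sets were named from the platform annotation: 34945 had 1 symbol, 932 several and 9160 none. The highest-mean probe set stood for each gene. The model was limma's (version 3.58.1, R 4.3.3; lmFit, then eBayes; a mean for each group, 4 residual and 0.67 prior degrees of freedom), two-sided, with Benjamini-Hochberg adjustment over 18193 genes, or 34945 probe sets where stated. The same fit was tested on simulated data. Errors are standard errors of the fit, and precision is limited by how few arrays there are. The members and lists were chosen with earlier results of these data known. Named genes are the members, up to 4 passing companions per list or the 2 with the smallest p, and the 3 genes most like each of the 3 members with the widest range of group means. Tables were made in Python 3.11.15 with pandas 2.3.3, and figures with matplotlib 3.10.9.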

Additional observations from a re-analysis of the deposited data

How the results depend on the processing

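Signal over background limits Peg3 and several Meg3, Ndn and Dlk1 probe sets, which lie close to the floor. Of 727 values of single genes under the alternatives, 690 kept their direction and their side of the threshold. The number of members passing was 0 in both leukemic versus normal comparisons and in the interaction under every alternative run. In HSC versus KSL of normal mice it was 1 with all arrays and between 1 and 2 with an array left out (Cdkn1c added without HSC normal replicate 2). It was 2 without genes at the floor, without the lowest 40% of genes (which leaves 4 of the 8 members), after the common median, after a further quantile normalization, with array weights and with the second-brightest probe set, Ndn joining Grb10 each time, and 0 with only the 2 groups compared or without the male arrays. In leukemic mice it was 1 with all arrays and between 0 and 3 with an array left out (0 without either leukemic KSL array, and 3, with Ndn and Cdkn1c added, without either normal HSC array). There it was 2 without genes at the floor, without the lowest 40% of genes, after the common median and with array weights, and 0 with only the 2 groups compared or without the male arrays. The fits of 2 groups and those without the male arrays have fewer residual degrees of freedom, and the cause of the other moves was not tested. The replicate block left the count at 1 in both HSC versus KSL comparisons and 0 in the other 3. Deviations of same-numbered arrays correlated between -0.04 and 0.09 over the 6 pairs of groups. The highest were 0.09 between HSC normal and KSL normal and 0.08 between HSC normal and KSL leukemic. Replicate 1 of both normal groups had the male pattern and that of KSL leukemic did not, and the part of sex was not tested. The labels do not say whether the numbers pair the samples, and these correlations do not show that they do.

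Reversals touched only differences that did not pass. With the male term, leukemic versus normal in KSL was 0.11 for Cdkn1c and 0.0557 for Meg3. Without the male arrays the interaction was 0.0393 for Cdkn1c and 0.21 for Meg3, and Meg3 in HSC was 0.0651. With the second-brightest probe set the interaction of Igf2r was 0.81, leukemic versus normal in KSL was 0.0312 for Dlk1 and -0.44 for Grb10, and HSC versus KSL of leukemic mice was 0.0829 for Peg3. With an array left out, leukemic versus normal in KSL ranged from -0.24 to 0.0517 for Cdkn1c and from -0.45 to 0.21 for Igf2. Leukemic versus normal in HSC ranged from -0.67 to 0.0651 for Meg3 and its interaction from -0.56 to 0.17. HSC versus KSL of leukemic mice ranged from -0.31 to 0.0192 for Igf2 and from -0.036 to 0.0887 for Dlk1. In these fits the lone array of a group is assumed to vary like the other groups.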
